A study of Mus musculus with 4 samples.

Results

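Chromatin modifiers and remodellers are the proteins that write, erase and read chemical marks on histones or move nucleosomes with the energy of ATP. Writers such as the lysine methyltransferases (Kmt and many Setd genes) and acetyltransferases (Kat) add marks, erasers such as the demethylases (Kdm) and deacetylases (Hdac) take them off, and readers such as the bromodomain (Brd) and ING proteins bind them. The Smarc, Arid and Chd families include ATPases and subunits of remodelling complexes, among them BAF, a complex that myoblasts use when they switch on muscle genes. The genes described here are all protein-coding genes of the GRCm38 annotation whose symbol starts with Kdm, Kmt, Hdac, Setd, Smarc or Arid, or is Kat, Brd, Chd or Ing followed by a digit, without Kat2a and Kat2b. The rule found 100 genes in 10 symbol families, of 21887 protein-coding genes. Brd3os and Brd8dc are among them by symbol only.

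Deaf1 is a transcription factor with a DNA-binding SAND domain, known to recognise the CpG-containing sequence TTCG. The sites it occupies were profiled by ChIP-seq in an established line of mouse myoblasts, C2C12, grown in serum-containing medium, with no treatment named. There were 2 libraries made with a Deaf1 antibody and 2 input libraries made without antibody, all from the same unmodified line. Peak lists of the 2 ChIP libraries and 1 list combining them were analysed, with 1860 peaks in replicate 1, 3126 in replicate 2 and 1550 combined regions. The labels do not say whether the replicates were separate cultures, and no expression was measured, so the labelled cell type was not checked against its markers. A gene was counted as bound where a region or peak lay within 1 kb of either end of its annotated span.

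Deaf1 regions of the combined list lay at the ends of 14 of the 100 chromatin genes (14%), against 1515 of 21787 other protein-coding genes (6.95%) and 6.99% of all protein-coding genes. The 14 were Kdm5a, Smarcc2, Setd3, Kmt2d, Hdac10, Chd8, Ing4, Brd9, Kdm4d, Arid3c, Arid3b, Setdb1, Setd5 and Kat7, in order of falling enrichment. Each of the 10 families had at least 1 bound gene. In Kmt, Hdac, Chd and Brd this was a single gene, and its replicate 2 peak lay nearer to the start of a neighbour. No other condition was profiled, so the comparison is between genes within these libraries, and no test was made because genes are not replicates of a condition.

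The promoter sequences of 4 bound genes are shown because the replicate 2 summit, the position of highest ChIP coverage, fell inside the RefSeq promoter. Each line gives the 250 bases before the RefSeq start in GRCm38.p6, 5′ to 3′ in the direction of the gene. Capitals mark TTCG and TTCCGG on either strand (read as CGAA and CCGGAA on the opposite one); TTCGAA holds both forms of TTCG, overlapping.
Smarcc2 (chr10:128458986-128459235, plus strand): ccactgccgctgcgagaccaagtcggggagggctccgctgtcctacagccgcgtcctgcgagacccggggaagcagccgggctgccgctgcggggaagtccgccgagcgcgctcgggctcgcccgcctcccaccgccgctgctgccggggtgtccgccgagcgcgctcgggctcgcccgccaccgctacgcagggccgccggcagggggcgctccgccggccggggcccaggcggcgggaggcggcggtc
Ing4 (chr6:125039598-125039847, plus strand): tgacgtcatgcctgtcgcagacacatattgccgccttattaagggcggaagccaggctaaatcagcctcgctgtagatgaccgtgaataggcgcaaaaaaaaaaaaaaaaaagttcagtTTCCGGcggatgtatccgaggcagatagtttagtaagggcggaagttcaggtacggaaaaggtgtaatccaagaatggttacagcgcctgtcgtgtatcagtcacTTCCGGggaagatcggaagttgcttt
Brd9 (chr13:73937561-73937810, plus strand): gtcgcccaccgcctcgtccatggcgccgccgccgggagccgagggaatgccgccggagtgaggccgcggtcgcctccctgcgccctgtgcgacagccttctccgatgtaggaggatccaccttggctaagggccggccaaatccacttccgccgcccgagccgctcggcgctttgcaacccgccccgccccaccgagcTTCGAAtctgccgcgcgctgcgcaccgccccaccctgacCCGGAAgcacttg
Kdm4d (chr9:14500483-14500732, minus strand): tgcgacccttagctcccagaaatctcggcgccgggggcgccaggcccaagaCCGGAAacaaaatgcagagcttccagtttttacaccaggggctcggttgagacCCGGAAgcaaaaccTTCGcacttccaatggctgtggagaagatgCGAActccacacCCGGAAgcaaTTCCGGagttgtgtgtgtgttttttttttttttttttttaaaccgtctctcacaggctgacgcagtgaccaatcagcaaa

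The Kdm4d promoter held 2 matches to TTCG and 4 to TTCCGG, and its summits lay 139 bp (replicate 1) and 148 bp (replicate 2) before the start, 2 bp from the nearest TTCCGG in each library. The Brd9 promoter held the 2 overlapping matches to TTCG and 1 to TTCCGG. Its summits lay 20 bp and 36 bp before the start. The replicate 1 summit was 27 bp from the nearest TTCG and 7 bp from TTCCGG. The replicate 2 summit was 11 bp from the nearest TTCG and 23 bp from TTCCGG. The Ing4 promoter held no TTCG and 2 matches to TTCCGG, with the replicate 2 summit inside one of them and the replicate 1 summit 7 bp from the other. The Smarcc2 promoter held neither sequence in these 250 bases, although its peaks were among the strongest of the set. A match is a description of letters, not a binding site.

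The families named for methyltransferases and acetyltransferases (Kmt, Setd and Kat) had 5 bound genes, not all of which encode histone-modifying enzymes. Kmt2d encodes a methyltransferase that places H3K4 methylation at enhancers. Its region (chr15:98831364-98831591) had a fold enrichment over local background, as the authors' peak caller gave it, of 11.8 in replicate 1 and 13.1 in replicate 2, a mean of 12.4 ± 0.92 (SD, n = 2). At the summit, 39 ChIP fragments overlapped in replicate 1 and 50 in replicate 2, with exact 95% Poisson intervals of 27.7 to 53.3 and 37.1 to 65.9. Its irreproducible discovery rate (IDR), the estimated rate at which regions of such strength do not repeat between replicates, was 0.010. The region lay beyond the 3′ end of Kmt2d, 165 bp from it by the replicate 2 summit and 4 bp from the start of Prkag1, which encodes a subunit of the energy sensor AMPK. Kmt2d was the only bound gene of the 6 H3K4 methyltransferases of COMPASS type (Kmt2a to Kmt2d, Setd1a and Setd1b).

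Setd3 encodes an actin histidine methyltransferase. Its region (chr12:108179346-108179853) had a fold enrichment of 12.5 in replicate 1 and 13.0 in replicate 2, a mean of 12.7 ± 0.31 (SD, n = 2). It was covered by 35 fragments (24.4 to 48.7) and 39 fragments (27.7 to 53.3) at a summit that fell on the same base in both libraries. That base lay 290 bp before the start of Setd3 and 327 bp from the start of the cyclin gene Ccnk, and the starts of these genes are 37 bp apart, with the region to one side of both, outside Setd3 and inside the span of Ccnk. Setdb1, which encodes an H3K9 methyltransferase that silences repeats, had a fold of 5.19 and 8.20 with its summits 45 bp and 40 bp before its own start. Its background was 4.39 fragments in replicate 1 and 2.90 in replicate 2, with 27 and 31 fragments at the summits. Setd5, which encodes another SET-domain protein, had a fold of 6.05 and 6.10 and the highest IDR in the combined list, 0.51.

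Kat7 encodes an acetyltransferase of the MYST family. It carried the weakest region of the 14, with a fold of 4.74 in replicate 1 (17 fragments, 9.90 to 27.2) and 4.46 in replicate 2 (25 fragments, 16.2 to 36.9), and its IDR was also 0.51. Its summits lay 50 bp and 40 bp before its start. Of the 5 MYST acetyltransferases, Kat7 alone had a combined region at an end of its span, and Kat8 had a peak in replicate 2.

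The families named for demethylases and deacetylases (Kdm and Hdac) had 3 bound genes. Kdm5a, which encodes an H3K4 demethylase, was the only bound gene of 6 H3K4 demethylases and carried 2 combined regions. The stronger (chr6:120363740-120364241, IDR 0.013) had its replicate 2 summit 16 bp outside the lower-coordinate end of Kdm5a, with a fold of 18.8 and 57 fragments (43.2 to 73.9). In replicate 1 the peak at this place had a fold of 7.97 and 42 fragments (30.3 to 56.8), over a background of 4.39 against 2.09 fragments in replicate 2. The weaker region (chr6:120364301-120364447) had folds of 8.21 and 10.0, with its replicate 1 summit 17 bp from the start of Ccdc77. Taking the strongest peak of each replicate, the mean fold at Kdm5a was 13.5 ± 7.5 (SD, n = 2), the largest mean and the largest spread of the 14 genes.

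Kdm4d, which encodes an H3K9 demethylase, had folds of 7.85 and 9.07 (chr9:14500497-14500722), a mean of 8.46 ± 0.86 (SD, n = 2), with 21 fragments (13.0 to 32.1) and 27 fragments (17.8 to 39.3). The replicate 2 summit lay 108 bp before the span of Kdm4d and 26 bp from the start of Cwc15, a splicing factor gene whose end is 82 bp from that of Kdm4d. It was the only bound gene of 8 H3K9 and H3K36 demethylases, and neither of the 2 H3K27 demethylases was bound.

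Hdac10, which encodes a polyamine deacetylase of class IIb, was the only bound gene of 11 Hdac genes. Its region (chr15:89123097-89123264, IDR 0.012) had a fold of 8.16 in replicate 1 and 16.7 in replicate 2, a mean of 12.4 ± 6.0 (SD, n = 2). The fragments differed less than the folds, with 43 (31.1 to 57.9) over a background of 4.39 in replicate 1 and 64 (49.3 to 81.7) over 2.90 in replicate 2. The replicate 2 summit was 127 bp outside Hdac10 and 32 bp from the start of Tubgcp6, a gamma-tubulin complex gene. None of the 4 class I genes (Hdac1, Hdac2, Hdac3 and Hdac8) and none of the 4 class IIa genes (Hdac4, Hdac5, Hdac7 and Hdac9) had a peak at an end in either library. Among all other protein-coding genes, 7.50% had a peak in replicate 1 and 11.2% in replicate 2. With so few genes in this and the other classes counted here, none or 1 bound gene cannot be told apart from these shares.

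Among the readers, Ing4 and Brd9 were bound. Ing4 encodes a PHD-finger protein that reads methylated H3K4 and is known as a partner of Kat7. Its region (chr6:125039582-125039932, IDR 0.013) had nearly equal folds of 11.4 and 11.3, a mean of 11.3 ± 0.10 (SD, n = 2), with 31 fragments (21.1 to 44.0) and 43 fragments (31.1 to 57.9). The summits of the replicates were 115 bp apart, at 14 bp and 129 bp before the start. Ing4 was the only bound gene of 5 Ing genes.

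Brd9 encodes a bromodomain subunit of a BAF complex. Its region (chr13:73937702-73937926, IDR 0.022) had folds of 11.1 and 9.48, a mean of 10.3 ± 1.1 (SD, n = 2), with 30 fragments (20.2 to 42.8) and 36 fragments (25.2 to 49.8). The start of Brd9 is 6 bp from that of Trip13, and the replicate 2 summit lay 26 bp and 20 bp from these starts, so the region cannot be given to 1 of them.

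Of the remodelling genes, Smarcc2 and Chd8 were bound. Smarcc2 encodes a core subunit of BAF. Its region (chr10:128459030-128459387, IDR 0.012) had folds of 10.9 and 15.2, a mean of 13.1 ± 3.0 (SD, n = 2), with 31 fragments (21.1 to 44.0) and 46 fragments (33.7 to 61.4). The summits lay 5 bp before and 16 bp inside the start of the span (59 bp and 38 bp before the RefSeq start used for the sequence), with no other gene's end within 1 kb of the replicate 2 summit. Replicate 2 listed 2 more peaks upstream, with folds of 6.15 and 5.13. Of the 14 listed BAF and PBAF subunit genes, 2 had a combined region (Smarcc2 and Brd9) and 4 had a peak in replicate 2, which added Smarcd1 and Arid1b. These are 14.3% and 28.6%, against 6.95% and 11.2% of other protein-coding genes. The Brd9 region cannot be given to Brd9 alone. With 14 genes, the counts are too small to be set apart from those shares, and no test was made.

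Chd8 encodes an ATPase of the CHD family. Its region (chr14:52197139-52197473, IDR 0.013) had folds of 11.9 and 12.6, a mean of 12.3 ± 0.48 (SD, n = 2), with 34 fragments (23.5 to 47.5) and 39 fragments (27.7 to 53.3). It lay beyond the 3′ end of Chd8, 908 bp away by the replicate 2 summit and 4 bp from the start of Supt16, which encodes a subunit of the histone chaperone FACT. At the start of Chd8 itself replicate 2 had a peak with a fold of 5.69 and 20 fragments (12.2 to 30.9), and the combined list had none. Chd8 was the only bound gene of the 9 CHD ATPases listed. Neither of the 2 ISWI ATPase genes had a combined region, and Smarca5 had a replicate 2 peak.

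The Arid family had 2 bound genes, both encoding DNA-binding ARID proteins. Arid3b had folds of 7.14 and 8.42, with 19 fragments (11.4 to 29.7) and 25 fragments (16.2 to 36.9), and summits 146 bp and 143 bp before its start. Arid3c (chr4:41723120-41723283, IDR 0.14) had folds of 8.57 and 7.77, a mean of 8.17 ± 0.56 (SD, n = 2), with 23 fragments (14.6 to 34.5) in each library. The Arid3c region lay beyond its 3′ end, 633 bp away by the replicate 2 summit and 35 bp from the start of the dynactin gene Dctn3.

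**Figure D1:**
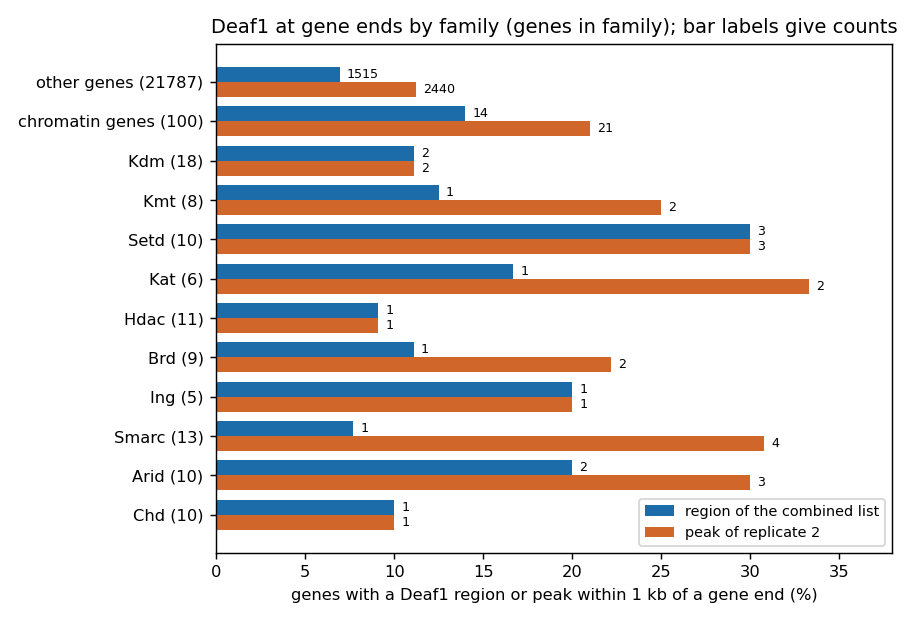
Share of genes (%) with a combined region (blue) or a replicate 2 peak (orange) within 1 kb of a gene end, for each symbol family, all 100 chromatin genes and the 21787 other protein-coding genes. Bar labels give the number of genes. The Setd family had 3 bound genes of 10, and the Smarc family went from 1 of 13 in the combined list to 4 in replicate 2.

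By family, a combined region was found at 3 of 10 Setd, 2 of 10 Arid, 1 of 5 Ing, 1 of 6 Kat, 1 of 8 Kmt, 2 of 18 Kdm, 1 of 9 Brd, 1 of 10 Chd, 1 of 11 Hdac and 1 of 13 Smarc genes, as the plot of shares by family shows. Where a region was counted only for the gene with the nearest end, no Kmt, Hdac, Brd or Chd gene remained. At an IDR of 0.05 or lower, no Kat or Arid gene remained. With 5 to 18 genes in a family, 1 gene moves its share by several percentage points, and the order of the families was not tested.

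Each library was also read on its own. Replicate 1 had a peak at an end of 14 chromatin genes (14%), the same genes as in the combined list, against 7.50% of other genes. Replicate 2 had one at 21 (21%), against 11.2% of other genes. The 7 genes with a peak in replicate 2 only were Kat8, Brd8, Smarcd1, Arid1b, Kmt5c, Smarca5 and Smarcad1, a share of 33.3% of the members with a replicate 2 peak. Among other genes with a replicate 2 peak, 37.3% had none in replicate 1. No chromatin gene had a peak in replicate 1 only, which 102 other genes did.

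The 7 peaks found in replicate 2 only were weaker than most of the shared ones and lay at the genes' own ends. Their folds ran from 3.59 at Smarcad1, which encodes a remodelling ATPase, to 7.95 at Kat8, which encodes an H4K16 acetyltransferase, with a median of 5.18. Other genes with a peak in replicate 2 but no combined region had a median of 5.89. The Kat8 summit had 30 fragments (20.2 to 42.8) and lay 30 bp from the start, and the Smarcad1 summit had 13 fragments (6.92 to 22.2) and lay 20 bp from its start. Smarcd1, a BAF subunit gene, had 22 fragments (13.8 to 33.3), 28 bp from its start. Smarca5, the gene of an ISWI ATPase, had 23 fragments (14.6 to 34.5) over a background of 4.84. In all 7 the nearest end of any protein-coding gene belonged to the chromatin gene itself, by 6 to 377 bp.

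**Figure D2:**
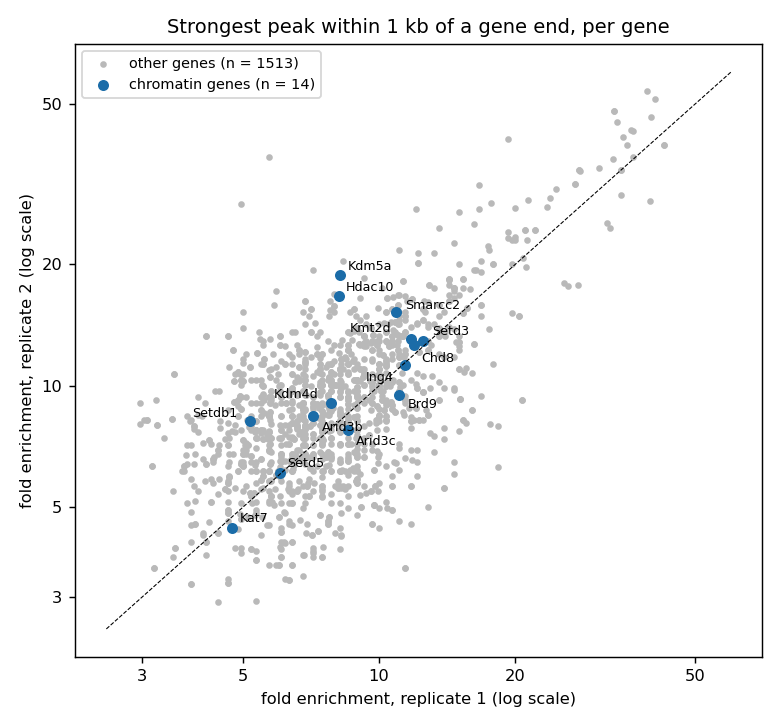
Fold enrichment of the strongest peak within 1 kb of a gene end in replicate 1 (horizontal) and replicate 2 (vertical), both on log axes, for the 14 bound chromatin genes (blue) and 1513 other genes with a combined region and a peak of each replicate (grey); the dashed line marks equal values. The chromatin genes lie between 4.46 and 18.8, within the range of the other genes, whose highest values are 42.7 and 53.7.

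The bound chromatin genes had moderate peaks. Their median fold was 8.39 in replicate 1 (lowest 4.74, highest 12.5) and 10.4 in replicate 2 (lowest 4.46, highest 18.8). The other bound genes had medians of 7.75 and 8.72. None of the chromatin genes reached the strongest peaks of the lists, at 42.7 and 53.7 for other genes. The median of the mean fold over both replicates was 10.8 for the 14 genes and 8.19 for the others. The fold was higher in replicate 2 at 10 of the 14 genes and at 65.1% of the other genes, with median ratios of 1.08 and 1.13. In rank, the strongest chromatin peaks were Setd3 in replicate 1 (160th of 1860) and Kdm5a in replicate 2 (74th of 3126).

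**Figure D3:**
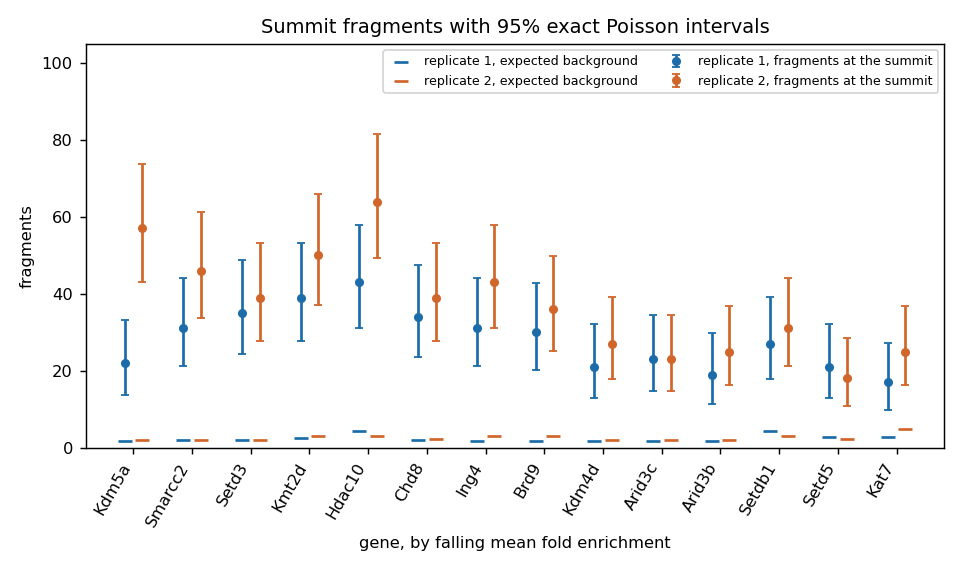
Fragments at the summit of the strongest peak (points, with 95% exact Poisson intervals) and background expected there (dashes) in replicate 1 (blue) and replicate 2 (orange) for the 14 bound chromatin genes. Kdm5a is the only gene whose 2 intervals do not overlap, and there the strongest peaks of the replicates belong to different regions.

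The depth allowed these peaks to be measured only within wide limits. Summit counts ran from 17 to 43 fragments in replicate 1 and from 18 to 64 in replicate 2, against a median of 22 and 23 over all peaks of the lists. The intervals of the replicates overlapped at 13 of the 14 genes. At Kdm5a they did not, but the peaks compared there come from different regions, and at the stronger region the intervals for 42 and 57 fragments overlap. Intervals cover counting error only.

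A stricter limit on reproducibility was met at a larger share of the bound chromatin genes than of the other bound genes. An IDR score of at least 540, which stands for an IDR of 0.05, was reached at 9 of the 100 chromatin genes (9%) and at 676 of the 21787 others (3.10%), or 3.13% of all genes. These were Kdm5a, Smarcc2, Setd3, Kmt2d, Hdac10, Chd8, Ing4, Brd9 and Kdm4d, so 64.3% of the 14 bound genes and 44.6% of the other bound genes passed. Kat7, Setd5, Setdb1, Arid3b and Arid3c did not. Of the genes that passed, Kmt2d, Hdac10, Chd8, Brd9 and Kdm4d had a replicate 2 summit nearer to a neighbour's end than to their own. Of those that did not pass, only Arid3c had. The difference in shares was not tested.

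**Figure D4:**
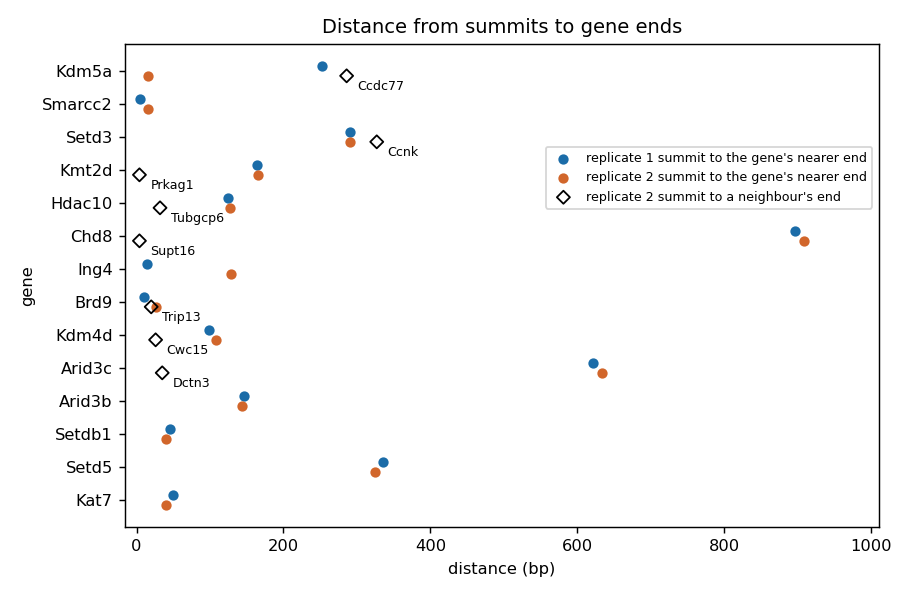
Distance in bp from the replicate 1 (blue) and replicate 2 (orange) summit to the nearer end of each bound chromatin gene, and from the replicate 2 summit to any other protein-coding gene's end within 1 kb (open diamonds, with the neighbour's symbol). At Kmt2d, Hdac10, Chd8, Brd9, Kdm4d and Arid3c the diamond is closer to 0 than the circle of the same library.

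Not all of these regions can be given to the chromatin gene. At 6 of the 14 genes (Arid3c, Brd9, Chd8, Hdac10, Kdm4d and Kmt2d) the replicate 2 summit was nearer to an end of a neighbour than to the chromatin gene's own, as the plot of distances shows. In each of these 6 the neighbour's end was its start. At the other 8 the nearest end to the replicate 2 summit was the gene's own, and it was the start at 7 of them. At Kdm5a the strongest replicate 1 peak had its summit 17 bp from the start of Ccdc77 and 253 bp from the Kdm5a end. For Kdm5a the strand was not given in the table used, so its end is named by coordinate. Counting a region only for the gene with the nearest end left 8 chromatin genes (8%) against 5.53% of other genes. Counting only annotated starts, where the strand was known, left 9 of 77 chromatin genes (11.7%) against 6.79% of 17415 others; with both ends counted in these same genes the shares were 15.6% and 7.05%. The gap to other genes was smaller under either way of counting.

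**Figure D5:**
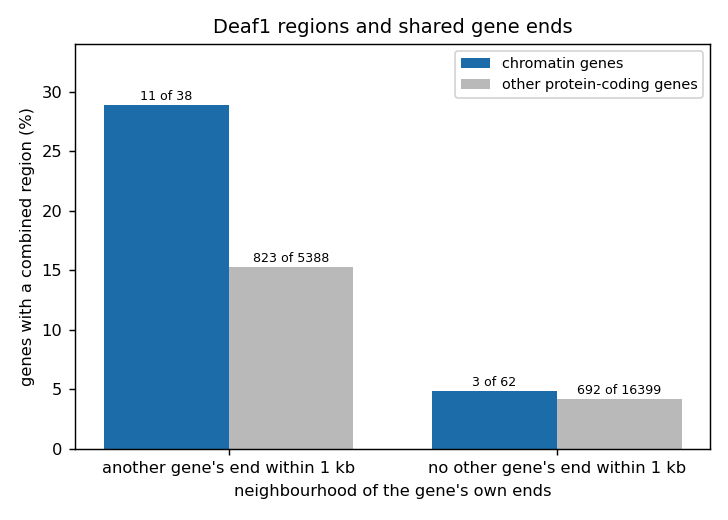
Share of genes (%) with a combined region, for genes that have another protein-coding gene's end within 1 kb of one of their own ends (left) and genes that do not (right), among chromatin genes (blue) and other genes (grey). Labels give the counts; the shares for genes without a close neighbour were 4.84% and 4.22%.

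Chromatin genes had a close neighbour more often than other genes did. Another protein-coding gene's end lay within 1 kb of an end of 38 of the 100 chromatin genes (38%) and of 24.7% of the others. Of these 38, 11 (28.9%) had a combined region, against 823 of 5388 other genes with a close neighbour (15.3%). Of the 62 chromatin genes without one, 3 (4.84%) had a region, against 692 of 16399 (4.22%). The 3 were Arid3b, Kat7 and Setd5, which were also among the 4 with the lowest mean fold. The gap to other genes was seen among genes that share an end, and the shares of the remaining genes were close. This was not tested. A region at a shared end counts for each gene there. At Ing4, Setdb1 and Smarcc2, which are among the 11, no other gene's end lay within 1 kb of the replicate 2 summit itself.

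The 1 kb limit decided few of the calls, with 12 bound genes at 500 bp and 16 at 5 kb. The 2 bound genes nearest to it were Chd8 and Arid3c, whose regions began 678 bp and 548 bp from the gene. In the combined list the nearest genes beyond it were Kat5 at 1129 bp and Ing5 at 1881 bp. Kat5, the acetyltransferase of the TIP60 complex, had combined regions inside its span. The strongest peaks there had folds of 8.37 (31 fragments, 21.1 to 44.0) and 4.33 (41 fragments, 29.4 to 55.6), and the summits lay 30 bp and 31 bp from an internal RefSeq start. At Ing5 the peaks had folds of 7.50 and 5.96 and lay 107 bp and 110 bp from an end of Dtymk.

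The promoters of the bound genes were searched for TTCG on both strands in the 300 bases from 250 before to 50 after the first RefSeq start, which was listed for 77 of the 100 chromatin genes. TTCG was present in 9 of the 12 promoters of bound chromatin genes (75%) and in 39 of 65 promoters of unbound ones (60%). At 4 of the 12 (Kmt2d, Chd8, Arid3c and Setd5) the replicate 2 summit lay between 7944 and 60517 bp from that start, so the promoter searched was not the place of the peak. TTCG was present in 70.0% of the promoters of other bound genes, in 47.3% of those of other unbound genes and in 49.0% of all 17492. The promoters also differed in base composition. The median GC content was 66% for bound and 62% for unbound chromatin genes, and 60% and 55.7% for bound and unbound other genes. The median number of CpG was 25.5 and 24 for bound and unbound chromatin genes, against 22 and 12 for the others. For chromatin genes this order was reversed when promoters were grouped by whether a combined region overlapped them. The 9 overlapped promoters had a median GC content of 57.0% and 19 CpG, against 62.7% and 24 in the 68 that none overlapped. The part of base composition in the TTCG shares was not tested. Among the 16 sequences of 4 bases that end in CG, TTCG ranked 5th by the ratio of its share in bound to unbound other genes.

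Genes of the same processes outside the symbol rule were counted by lists of complexes and enzyme classes. Of 139 such genes, 16 had a combined region (11.5%), against 6.95% of protein-coding genes outside the symbol families. The subunits of the INO80, SRCAP and TIP60 remodelling complexes had 7 of 23 (Actl6a, Actr6, Dmap1, Ino80, Ino80b, Morf4l1 and Ruvbl1), and the sirtuin deacetylases had 3 of 7 (Sirt3, Sirt6 and Sirt7). Histone chaperones had 2 of 15 (Daxx and Supt16), Polycomb genes 2 of 26 (Bmi1 and Pcgf3), NuRD and Sin3 scaffold genes 1 of 16 (Mta2) and other BAF subunits 1 of 13 (Bcl7b). No combined region was found for 10 COMPASS shared subunits, 12 other histone lysine methyltransferases, 9 protein arginine methyltransferases or 8 DNA methylation enzymes. Mta2, a subunit gene of the NuRD complex, had the strongest of these regions, with folds of 27.1 and 31.7, a mean of 29.4 ± 3.3 (SD, n = 2), and its summit 34 bp from its start. It was above each of the 14 genes of the symbol families. The region of Supt16 is the one counted for Chd8. The Sirt3 summit lay nearer to an end of Psmd13 (23 bp) than to the start of Sirt3 (62 bp). The lists were chosen with earlier results of these data known, and the higher shares of the short lists were not tested. The lists with no combined region are too short to set a count of none apart from 6.95%. Among their genes, Cxxc1 and Prmt5 had a peak in replicate 1 and Rbbp5 had one in replicate 2.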

How the data were processed

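Deaf1 ChIP-seq of C2C12 cells comprised 2 ChIP and 2 input libraries. The submitters' processing notes name FastQC 0.11.8, BWA 0.7.17-r1198, MACS2 2.1.2 and the build mm10. Per the labels' protocols, cells were fixed and sonicated, yet the same field says native ChIP-seq, which was not settled. For every peak the deposited ratio, called fold enrichment here, sets ChIP coverage at the summit against local background, and the deposited −log10 p and q of each peak come from the same peak caller. The deposited combined list gives an IDR score per region for the pair of libraries, and its 6 unnamed columns of values for each library were not used. Whether duplicates were removed is not given in the sources used here.

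Fragments and background at each summit were recovered from the deposited fold and −log10 p: for 100% of peaks 1 whole number fitted both to within 0.001 (largest error 5.1e-05), as tested on simulated data. The fit took the fold as fragments plus 1 over background plus 1, so fragments divided by background do not give the fold. Gene spans and promoters came from RefSeq GRCm38.p6, chromosomes 1 to 19, X and Y; the promoter table gave the strand. The strongest peak per gene and replicate within 1 kb of an end was used (Python 3.11.15, pandas 2.3.3, scipy 1.17.1). Members and lists were chosen with earlier results of these data known. Every bound member is named, and the 10 with the largest mean fold are given with coordinates. Promoters are shown for those of these 10 whose replicate 2 summit lay in the promoter window. Alternatives covered the IDR score, the window, starts only, the nearest gene, the gene span, −log10 q, each library alone and the motif. The result of 1 list of reader genes is not reported here.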

Additional observations from a re-analysis of the deposited data

How the results depend on the processing

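The share of bound genes was higher among chromatin genes than among other genes under each of the 8 alternatives to the main count. The ratios ran from 1.45 to 2.90, where the main ratio was 2.01. Leaving out 1 replicate, counted among these alternatives, meant using the peak list of the other library. Those results therefore repeat the counts of each library alone. The number of bound chromatin genes fell from 14 to 9 at an IDR score of at least 540 and to 8 with the nearest gene only, by the alternatives' own construction. With annotated starts only it was 9, among the 77 chromatin genes with a known strand. In these 77 genes 12 were bound with both ends counted. Kdm5a and Hdac10 were left out there because their strand was not given. Other bound genes fell from 1515 to 676 at that score. With 1 replicate left out, the bound chromatin genes ran from 14 to 21 and the other bound genes from 1633 to 2440; Kmt, Kat and Brd genes ran from 1 to 2 each and Smarc genes from 1 to 4, the higher number being that of replicate 2 alone. The median fold of 10.8 was 8.64 over all peaks within 1 kb, and 8.39 to 10.4 with 1 replicate left out. Promoters with 2 or more TTCG numbered 4 of the bound and 15 of the unbound chromatin genes, in place of 9 and 39. TTCCGG, chosen after the data were seen, was in 7 and 17. Counts of each library alone stayed within 1.5 times under the stricter q, summit distance, 500 bp and 5 kb. No paired analysis was possible because both ChIP libraries belong to 1 group and no separate input values were analysed. With medians of 22 and 23 fragments per summit, counting error limits comparisons of single peaks.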

Other observations

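The sequence TTCCGG was chosen after the shown promoters (Smarcc2, Ing4, Brd9 and Kdm4d) had been read. These promoters are among the overlapped ones counted here, so the chromatin gene share is not independent of that choice. On either strand, TTCCGG was in 7 of the 9 chromatin gene promoters that a combined region overlapped (77.8%: Arid3b, Brd9, Ing4, Kat5, Kat7, Kdm4d and Setdb1) and in 17 of the 68 that none overlapped (25%). Among other genes it was in 73.1% of 1101 overlapped and 15.4% of 16314 other promoters of the same length. TTCG was in 66.7% and 61.8% of these chromatin gene promoters and in 71.9% and 47.4% of the other genes' promoters. Setd3 and Smarcc2 were the overlapped chromatin gene promoters without TTCCGG.

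All 2080 sequences of 6 bases, with each counted on either strand, were then ranked by the difference of these shares in other genes. CGGAAG came first, with 77.9% against 17.6%, and CCGGAA, the opposite strand of TTCCGG, came second. These letters are also the core of sites of the ETS family of transcription factors. Overlapped promoters of other genes had a median GC content of 60.3% against 55.7%. Those of chromatin genes went the other way, with 57.0% against 62.7%. The part of base composition in these shares was not tested.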
